A study of Mus musculus with 96 samples.

Results

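Among mouse leukaemias started from LSK cells, 5 barcoded clones that sat below the 4 leading ones were followed through every LSK-derived tumour of the series. They carry the names GFP_Barcode_16972, GFP_Barcode_15135, GFP_Barcode_29725, GFP_Barcode_74372 and GFP_Barcode_94628, and are called by their numbers below. They are 5 of the 1331 GFP barcodes, and of 4675 barcodes of any colour, in the tables. The clones were chosen by their share of GFP reads in recipient mice, so those shares are a description here, and a gain over the pool was not tested.

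A SPLINTR barcode is a short DNA sequence that a viral vector inserts into the genome of a cell and that all its descendants inherit. The share of reads of a barcode in a tumour therefore follows the expansion of the cell that first carried it. In leukaemias transplanted with many barcodes, a few clones usually come to hold most of the tumour, and the clones below them show how repeatable that order is from mouse to mouse. MLL-AF9 is a fusion oncogene that turns blood progenitors into acute myeloid leukaemia. LSK cells (Lin- c-Kit+ Sca-1+) are immature progenitors of the bone marrow, haematopoietic stem cells among them. GMP cells, the granulocyte-monocyte progenitors, are already committed to making myeloid cells. No barcode sequence was used here, since the tables give barcode names alone.

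Both kinds of progenitor came from the bone marrow of female C57BL/6 mice aged 6 to 8 weeks, were transduced with an MLL-AF9 retrovirus and then with SPLINTR libraries, GFP in LSK cells and mCherry in GMP cells. Every group thus carried MLL-AF9 and barcodes. Barcodes were counted in genomic DNA of bone marrow and spleen of the recipients and in the cell pools before transplantation. The study asked how leukaemias of either origin grow alone and in competition.

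LSK-derived cells were present in 4 groups of recipients. The NSG LSK_GMP group comprised 4 NSG mice that received LSK and GMP cells mixed (mice 21 to 24), and the NSG LSK group 4 NSG mice that received LSK cells alone (mice 9 to 12). NSG mice lack B, T and NK cells. The Ptprca LSK_GMP group comprised 4 mice with the mixture (mice 17 to 20), and the Ptprca LSK group 3 mice with LSK cells alone (mice 1 to 3). Ptprca is an immunocompetent strain. The starting pools were LSK_T0 for LSK cells alone and GMPLSK_T0 for the mixture, with 1 sample of each. All recipients of a kind drew on the same pool, so a clone seen in several mice is not an independent clone in each. Whether each barcode marked a single transduced cell was not tested. The labels used here give no recipient age, cell dose, day of sacrifice or preparation batch.

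The 15 mice gave 29 libraries, 15 of spleen and 14 of bone marrow, because mouse 24 had a spleen library only. Libraries and pools held 1863456 to 8497406 GFP reads. All clone values below are percentages of the GFP reads of a library, and a mouse value is the mean of its tissues. GFP reads made up 32.4% to 79.6% of the reads of mixed recipients. In 2 LSK recipients, spleen of mouse 10 and bone marrow of mouse 12, at least 0.1% of reads came from a barcode library the mouse had not received. In 12 of 14 mice with both tissues the bone marrow deviated from its group together with the spleen of the same mouse. The exceptions were NSG LSK_GMP mice 21 and 22, with correlations over 117 clones of -0.07 and -0.10, where the bone marrow of each deviated with the spleen of the other (0.42 and 0.46). The labels were kept, and tests that include these mice were also run without them.

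All 5 clones were detected in both pools and in all 29 libraries. In the LSK pool, clone 15135 was the largest at 0.747% (95% Wilson interval 0.740 to 0.754) and rank 23 of 1209 GFP clones above 0. Clone 16972 held 0.657% (0.650 to 0.663) at rank 29, and clone 29725 held 0.237% (0.233 to 0.241) at rank 101. Clone 94628 held 0.0678% (0.0657 to 0.0699) at rank 276, and clone 74372, the smallest, held 0.0356% (0.0341 to 0.0371) at rank 397. The 5 therefore entered the mice at sizes that differed widely, and none was among the 10 largest clones of the pool. The intervals cover counting error only, since PCR reads are not independent molecules.

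The mixed pool gave nearly the same GFP shares. The share in the mixed pool over that in the LSK pool was 1.06 for clone 16972, 1.04 for clone 15135 and 1.05 for clone 29725. It was 1.14 (95% counting interval 1.08 to 1.21) for clone 94628 and 0.817 (0.747 to 0.893) for clone 74372. Over the 679 clones with at least 0.01% of the LSK pool the median ratio was 1.01, with quartiles of 0.915 and 1.15, so clone 74372 lay below the lower quartile and the other four lay between the quartiles.

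Ordered by the mean of the 4 group means, the leading clones were 1859 (31.9% of GFP reads), 7785 (17.1%), 29850 (15.96%) and 100907 (12.7%). The clones described here took positions 7 (16972, 1.74%), 8 (74372, 1.66%), 9 (15135, 1.27%), 11 (29725, 1.02%) and 15 (94628, 0.530%). Clone 8037 stood just above them at 2.35% and clone 43817 just below at 0.504%. Clones 148344, 20873, 101397 and 8623 stood between them and were not chosen, so the 5 are not a closed tier. The leading 4 held 85.9 ± 3.06% of GFP reads in NSG LSK_GMP mice, 84.7 ± 7.81% in NSG LSK mice, 71.8 ± 2.91% in Ptprca LSK_GMP mice and 68.5 ± 3.38% in Ptprca LSK mice (SD over 4, 4, 4 and 3 mice).

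Together the 5 clones held 3.52 ± 2.92% of GFP reads in NSG LSK_GMP mice, 2.94 ± 0.617% in NSG LSK mice, 9.30 ± 1.37% in Ptprca LSK_GMP mice and 9.12 ± 1.91% in Ptprca LSK mice. They had held 1.82% of the mixed pool and 1.74% of the LSK pool. The highest NSG value, 7.85% in mouse 22, overlapped the Ptprca mice, which ranged from 7.02% to 10.8%, and the other seven NSG mice lay at or below 3.71%. Of the GFP reads that the leading 4 clones left over, the 5 made up 24.8 ± 20.1% in NSG LSK_GMP mice, 22.96 ± 11.5% in NSG LSK mice, 33.0 ± 4.23% in Ptprca LSK_GMP mice and 28.7 ± 3.49% in Ptprca LSK mice. On that base the groups overlapped: NSG mice ranged from 11.2% to 54.8% and Ptprca mice from 24.7% to 38.4%.

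The clones differed in how often they exceeded their share of the pool. Clone 74372, the smallest of the pool, was above it in all 15 mice and all 29 libraries. Clone 29725 was above its pool share in 11 mice (4 of 8 NSG and 7 of 7 Ptprca), clone 15135 in 10 (4 NSG and 6 Ptprca), clone 16972 in 8 (1 NSG and 7 Ptprca) and clone 94628 in 7 (3 NSG and 4 Ptprca). Within a mouse, clone 74372 was the largest of the 5 in 5 NSG mice and 1 Ptprca mouse, clone 15135 in 3 NSG mice, and clone 16972 in 6 Ptprca mice. Clones 29725 and 94628 were the largest of the 5 in no mouse.

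Clone 16972 was smaller in every NSG mouse than in any Ptprca mouse. For this clone and those below, the share of all clones whose hosts did not overlap was not determined. In NSG LSK_GMP mice it held 1.12%, 0.148%, 0.0903% and 0.153% of GFP reads in mice 21 to 24, against 2.96%, 2.78%, 1.97% and 2.77% in Ptprca LSK_GMP mice 17 to 20. In NSG LSK mice it held 0.187%, 0.319%, 0.386% and 0.463% in mice 9 to 12, against 3.47%, 3.996% and 3.38% in Ptprca LSK mice 1 to 3. The means over the 8 NSG and 7 Ptprca mice were 0.358 ± 0.333% and 3.05 ± 0.647% (SD). Relative to the pool, the group mean stood at 0.544 times the pool share in NSG LSK_GMP mice, 0.516 times in NSG LSK mice, 3.78 times in Ptprca LSK_GMP mice and 5.51 times in Ptprca LSK mice. The clone was among the 10 largest GFP clones in 3 of 15 NSG libraries and in 14 of 14 Ptprca libraries.

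Clone 15135 had a large share in some NSG mice and a very small share in others. In NSG LSK_GMP mice it held 0.0761%, 1.33%, 0.0126% and 0.0166% in mice 21 to 24, against 2.02%, 1.40%, 2.38% and 1.956% in Ptprca LSK_GMP mice 17 to 20. Among LSK recipients it held 1.92%, 0.255%, 0.997% and 1.56% in NSG mice 9 to 12, against 2.52%, 0.708% and 1.54% in Ptprca mice 1 to 3. The hosts did not overlap among mixed recipients and overlapped among LSK recipients. Mice 21, 23 and 24 held less of the clone than the 0.777% of the mixed pool, at 0.0979, 0.0162 and 0.0214 times the pool share.

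Clone 29725 was also smaller in most NSG mice. It held 0.0451%, 1.08%, 0.116% and 0.333% in NSG LSK_GMP mice 21 to 24, against 1.03%, 2.63%, 1.98% and 1.32% in Ptprca LSK_GMP mice 17 to 20. In LSK recipients it held 0.0250%, 0.595%, 0.282% and 0.173% in NSG mice 9 to 12, against 1.17%, 0.596% and 3.33% in Ptprca mice 1 to 3. Mouse 22 lay inside the Ptprca LSK_GMP range. In LSK recipients the hosts were apart by less than 0.001% of GFP reads, between NSG mouse 10 and Ptprca mouse 2.

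Clone 74372 had overlapping shares in both hosts. Among LSK_GMP recipients it held 1.38%, 3.48%, 1.29% and 1.54% in NSG mice 21 to 24, against 1.48%, 1.43%, 2.69% and 1.17% in Ptprca LSK_GMP mice 17 to 20. Among LSK recipients it held 0.808%, 1.62%, 0.536% and 1.48% in NSG mice 9 to 12, against 2.88%, 1.55% and 1.30% in Ptprca LSK mice 1 to 3. All groups overlapped between hosts. The group means were 66.1 times the pool share in NSG LSK_GMP mice, 31.3 times in NSG LSK mice, 58.2 times in Ptprca LSK_GMP mice and 53.7 times in Ptprca LSK mice. The lowest mouse, NSG LSK mouse 11, still held 15.1 times the pool share. The fold rests on 626 reads of the clone in the mixed pool and 2089 in the LSK pool, and on 1 sample of each pool.

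Clone 94628 was the most irregular. Among LSK_GMP recipients it held 0.0800%, 1.81%, 0.00674% and 3.40e-05% in NSG mice 21 to 24, against 0.0466%, 2.54%, 0.0590% and 2.59% in Ptprca LSK_GMP mice 17 to 20. Among LSK recipients it held 0.00447%, 0.0926%, 0.00299% and 0.0377% in NSG mice 9 to 12, against 0.707%, 0.171% and 0.0221% in Ptprca LSK mice 1 to 3. Mice 22, 18 and 20 each had more than 1% and the remaining mixed recipients less than 0.1%. The value of mouse 24 is 1 read in 2937816 (95% Wilson interval 6.01e-06% to 0.000193%).

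The difference between hosts was tested with limma across the 115 GFP clones that averaged at least 100 CPM of GFP reads (reads of a clone per 1000000 GFP reads), on log2 of CPM plus 10. The contrast was NSG minus Ptprca, averaged over the recipient types, with p-values adjusted by the Benjamini-Hochberg method over all 115 clones and called under 0.05. Of the 5 clones, 3 were called, all lower in NSG mice, while 68.7% of all clones tested were called lower and 3.48% higher, or 72.2% in either direction, so lower calls were the usual outcome. The log2 difference was -3.52 for clone 16972 (SE 0.543, adjusted p = 3.00e-05), -2.98 for clone 29725 (SE 0.792, adjusted p = 0.00312) and -2.67 for clone 15135 (SE 0.852, adjusted p = 0.00976). The median clone differed by -3.16, so these values were close to it. That median depends on the minimum level, which a clone large in 1 host alone could pass. With a minimum of 10 CPM it was -1.825 over 233 clones. With no minimum it was -0.238 over 626 clones, of which 16.6% were called. An exact two-sided permutation test of the host labels within recipient type gave p = 0.000408 for clone 16972, the smallest that 2450 permutations can give, 0.00245 for clone 29725 and 0.0327 for clone 15135.

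Clone 74372 was not called, with a log2 difference of -0.35 (95% interval -1.24 to 0.54, limma adjusted p = 0.444). Its interval lay above the -3.16 of the median of the 115 clones, but that median depends on the minimum level. The interval also lay above the median of -1.825 with a minimum of 10 CPM. It included the median of -0.238 with no minimum, so the contrast with the median clone depends on the minimum. Clone 94628 was not called either, at -3.28 (interval -6.45 to -0.12, limma adjusted p = 0.0582), and was called when mice 21 and 22 were left out (-5.05, limma adjusted p = 0.00278). Leaving out any of mice 3, 10, 17, 19 or 22 singly also gave a call for it, at limma adjusted p-values of 0.00867 to 0.0459. So did bone marrow alone (-4.78, limma adjusted p = 0.0106) and the omission of the libraries holding reads not received (-4.07, limma adjusted p = 0.0185). In 4 of 29 libraries, 3 of them from NSG mice, this clone was no higher than the background described below. These directions are those of a share of GFP reads, of which the leading 4 clones together held more in NSG mice. When each mouse was centred on its median clone, the median of all 115 differences was 1.83, 51 clones were called and 50 of them were higher in NSG mice. All 5 clones then changed sign, at 1.47 for clone 16972, 2.32 for clone 15135, 2.01 for clone 29725, 4.64 for clone 74372 and 1.71 for clone 94628, and the last was again not called. With edgeR on the recovered reads and TMM scaling (a trimmed mean of clone ratios), clone 16972 stood at -1.01 and was not called (adjusted p = 0.230 over all clones). As a share of the GFP reads outside the leading 4 clones, clone 16972 alone was called, at -2.37 (limma adjusted p = 0.00182), with 29725 at -1.60 and 15135 at -1.30. Clone 15135 was not called either with edgeR on the recovered reads without TMM, at -1.45 (adjusted p = 0.119 over all clones), in spleens alone, at -1.40 (limma adjusted p = 0.227), or with no minimum level (limma adjusted p = 0.0573). Without mice 21 and 22 the differences were -3.97 for clone 16972, -3.76 for 15135, -3.02 for 29725 and -0.51 for 74372, all but the last called. For this setting, single tissues and shares outside the leading 4 clones, the part of all clones called is not given here.

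Within LSK recipients 2 of the 5 clones were called lower in NSG mice, beside 45.2% of all clones (47% in either direction): 16972 at -3.48 (limma adjusted p = 0.00206) and 29725 at -2.997 (limma adjusted p = 0.0424). The others stood at -0.58 (15135), -0.83 (74372) and -3.07 (94628), uncalled. Without the 2 libraries holding reads not received, clone 74372 was called lower in NSG LSK mice, at -1.68 (limma adjusted p = 0.0255). In that setting clone 29725 was not called, at -2.80 (limma adjusted p = 0.0546), beside 47.8% of all clones called. The call of clone 29725 was lost when any of mice 1, 3, 9, 12, 17, 18, 19 or 20 was left out. Within LSK_GMP recipients 3 were called lower, beside 54.8% of all clones lower and 2.61% higher (57.4% in either direction): 16972 at -3.56 (limma adjusted p = 0.000661), 15135 at -4.76 (limma adjusted p = 0.00218) and 29725 at -2.96 (limma adjusted p = 0.0249). Clones 74372, at 0.13, and 94628, at -3.49, were not called. The call of clone 29725 was lost when any of mice 18, 19, 21 or 23 was left out, and the exact permutation test gave p = 0.0571 for clone 29725 in either recipient type. Without mice 21 and 22 the differences in LSK_GMP recipients were -4.45, -6.94 and -3.04 for clones 16972, 15135 and 29725, all called, and -7.03 for clone 94628, called as well (limma adjusted p = 0.00700). NSG and Ptprca mice stand in separate tables and the labels used here name no preparation batch, so host and preparation cannot be told apart.

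The presence of GMP cells was compared as LSK_GMP minus LSK recipients. None of the 5 clones was called over both hosts, where 6.09% of clones were, nor in NSG mice (0% of clones, with 12 at an unadjusted p under 0.05) or Ptprca mice (3.48% of clones). The log2 differences over both hosts were 0.32 for clone 74372 (95% interval -0.57 to 1.21), 0.32 for clone 29725 (-1.35 to 1.98), 1.18 for clone 94628 (-1.98 to 4.35), -0.51 for clone 16972 (-1.66 to 0.63) and -1.64 for clone 15135 (-3.44 to 0.15). The intervals are wide, so changes of severalfold would not have been detectable for clones 29725, 94628 and 15135. The mixed pool held 50.6% GFP reads, and no cell dose is given, so the presence of GMP cells and a smaller number of LSK cells cannot be told apart.

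Clone 15135 had the lowest unadjusted p of the 5 clones in this comparison, in NSG mice. It averaged 0.360 ± 0.650% in NSG LSK_GMP mice and 1.18 ± 0.725% in NSG LSK mice (SD, n = 4 each), and the groups overlapped through mouse 22. The log2 difference was -3.73 (limma unadjusted p = 0.00485, adjusted p = 0.140), and the exact permutation test of the mouse labels gave p = 0.0857. Without mouse 22 it was called at -5.14 (limma adjusted p = 0.00251), and without mice 21 and 22 at -5.91 (limma adjusted p = 0.000357), which leaves mice 23 and 24. It was also called without NSG LSK mouse 10, at -4.35 (limma adjusted p = 0.0476). The corresponding difference in Ptprca mice was 0.44, with 1.94 ± 0.405% in LSK_GMP mice and 1.59 ± 0.907% in LSK mice. The difference between hosts in this respect was -4.17 (limma adjusted p = 0.373), also uncalled, and none of the 115 clones was called for it, with 11 at an unadjusted p under 0.05. Without mouse 22 it was called at -5.59 (limma adjusted p = 0.0405). For the others it was -0.07 (16972), 0.04 (29725), 0.96 (74372) and -0.42 (94628).

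Clone 16972 averaged 2.62 ± 0.444% in Ptprca LSK_GMP mice and 3.62 ± 0.332% in Ptprca LSK mice (SD, n = 4 and 3). The groups did not overlap, and an exact permutation test gave p = 0.0286, the smallest that 35 permutations can give, for 1 of 5 clones tested this way. The share of all clones whose groups did not overlap was not determined, so whether this is unusual is unknown. The log2 difference of -0.48 was not called by limma (adjusted p = 0.885), whose SE of 0.797 is shared with the more variable NSG mice. In NSG mice the clone averaged 0.377 ± 0.494% in LSK_GMP mice and 0.339 ± 0.117% in LSK mice, with overlap. The remaining clones differed by 0.34 (29725), 0.80 (74372) and 0.97 (94628) in NSG mice, and by 0.30, -0.16 and 1.39 in Ptprca mice, none of them called. Without mice 21 and 22 these NSG differences were 0.25, 0.48 and -2.57, also uncalled, so that of clone 94628 turned.

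Spleen and bone marrow of the same mouse were compared in 14 mice, as spleen minus bone marrow on the log2 scale with the mouse as a block. None of the 5 clones was called over all mice, beside 19.7% of the 117 clones tested (0.855% higher in spleen), whose median was -0.73. The others stood at 0.28 (15135), -0.37 (29725), 0.29 (74372) and -0.73 (94628). Clone 16972 came closest to a call, at -0.93 (SE 0.338, limma adjusted p = 0.0683, exact sign-flip permutation p = 0.00610). Its spleen share was below its bone marrow share in 12 of 14 mice, including 7 of 7 Ptprca mice. Without mouse 22, an exception, it was called at -1.16 (limma adjusted p = 0.0492), and without mice 21 and 22 it was not, at -1.35 (limma adjusted p = 0.0907).

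In NSG mice, clone 16972 held 0.882%, 0.217% and 0.0331% in the spleens of LSK_GMP mice 21 to 23, against 1.35%, 0.0801% and 0.148% in their bone marrow. In LSK mice 9 to 12 it held 0.115%, 0.210%, 0.140% and 0.477% in spleen, against 0.260%, 0.429%, 0.632% and 0.450% in bone marrow. Mice 12 and 22 ran against the other five, and the log2 difference of -0.76 was not called (limma adjusted p = 0.887).

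In Ptprca mice, clone 16972 held 1.961%, 1.53%, 1.66% and 1.74% in the spleens of LSK_GMP mice 17 to 20, against 3.97%, 4.03%, 2.27% and 3.79% in bone marrow. In LSK mice 1 to 3 it held 1.49%, 3.22% and 2.09% in spleen, against 5.46%, 4.78% and 4.68% in bone marrow. The tissues overlapped over the 7 mice, since the 3.22% spleen of mouse 2 exceeded the 2.27% bone marrow of mouse 19, although every pair ran the same way. The log2 difference in Ptprca mice was -1.10 (limma adjusted p = 0.0807, exact sign-flip permutation p = 0.0156, the smallest that 128 sign flips can give). That is smaller in size than the -1.62 of the median clone of these mice at the minimum of 100 CPM. The median was -1.04 with a minimum of 10 CPM and -0.068 with no minimum, both smaller in size than the value of clone 16972. The NSG minus Ptprca difference in this tissue difference was 0.34 (limma adjusted p = 0.709), not called.

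Clone 94628 was higher in spleen in 6 of 7 NSG mice and lower in spleen in 5 of 7 Ptprca mice. It held 0.0923%, 3.604% and 0.00726% in the spleens of NSG LSK_GMP mice 21 to 23, against 0.0677%, 0.0165% and 0.00622% in bone marrow. In NSG LSK mice 9 to 12 it held 0.00829%, 0.183%, 0.00461% and 0.0123% in spleen, against 0.000653%, 0.00249%, 0.00138% and 0.0631% in bone marrow. The exception was mouse 12. The log2 difference of 2.28 was not called (limma adjusted p = 0.870), and neither was that of any other of the 117 clones in NSG mice (0%), where 4 had an unadjusted p under 0.05.

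In Ptprca mice clone 94628 was called lower in spleen, as 1 of the 5 clones, at -3.75 (limma adjusted p = 0.0486), where 36.8% of clones were called lower in spleen and 0.855% higher (37.6% in either direction). It held 0.0742%, 0.0212%, 0.0921% and 0.0321% in the spleens of LSK_GMP mice 17 to 20, against 0.0189%, 5.06%, 0.0258% and 5.15% in bone marrow. In LSK mice 1 to 3 it held 0.0344%, 0.000804% and 0.0136% in spleen, against 1.38%, 0.341% and 0.0305% in bone marrow. Bone marrow was higher in 5 of 7 mice and spleen in mice 17 and 19. The call stood close to the threshold: the exact sign-flip permutation test gave p = 0.109, the fit without the mouse block gave an adjusted p of 0.0526 with limma, and leaving out any of mice 1, 2, 3, 9, 11, 18, 20, 21 or 23 ended it. The tissue difference in NSG minus that in Ptprca mice was 6.04 for this clone (limma adjusted p = 0.0591), not called, where 12% of clones were called (0.855% with a negative value). It was called without mouse 12, 17 or 19 (limma adjusted p = 0.0389, 0.0349 and 0.0405), and stood at 4.75 without mice 21 and 22 (limma adjusted p = 0.319).

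Clone 15135 was higher in spleen in 4 of 7 NSG mice and lower in spleen in 6 of 7 Ptprca mice. In NSG LSK_GMP mice 21 to 23 it held 0.0972%, 2.67% and 0.0231% in spleen, against 0.0550%, 0.000955% and 0.00217% in bone marrow, and the spleen of mouse 24 held 0.0166%. In NSG LSK mice 9 to 12 it held 1.09%, 0.240%, 0.280% and 2.49% in spleen, against 2.75%, 0.271%, 1.71% and 0.620% in bone marrow. The 1.33% mean of mouse 22 thus rested on its spleen. In Ptprca LSK_GMP mice 17 to 20 the clone held 1.72%, 2.55%, 0.419% and 0.909% in spleen, against 2.33%, 0.254%, 4.35% and 3.002% in bone marrow. In Ptprca LSK mice 1 to 3 it held 0.404%, 0.292% and 0.594% in spleen, against 4.64%, 1.12% and 2.49% in bone marrow. Mouse 18 alone reversed the order among Ptprca mice. The log2 differences of 2.09 in NSG mice and -1.53 in Ptprca mice were not called (limma adjusted p = 0.710 and 0.250), nor was the difference between hosts, at 3.62 (limma adjusted p = 0.124).

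Clone 29725 was higher in spleen in 5 of 7 NSG mice and lower in spleen in 6 of 7 Ptprca mice. In NSG LSK_GMP mice 21 to 23 it held 0.0870%, 0.177% and 0.153% in spleen, against 0.00318%, 1.98% and 0.0788% in bone marrow, and the spleen of mouse 24 held 0.333%. In NSG LSK mice 9 to 12 it held 0.0106%, 0.656%, 0.291% and 0.331% in spleen, against 0.0394%, 0.535%, 0.273% and 0.0136% in bone marrow. Mice 9 and 22 were the NSG exceptions. In Ptprca LSK_GMP mice 17 to 20 it held 0.990%, 0.505%, 0.980% and 1.51% in spleen, against 1.06%, 4.75%, 2.99% and 1.12% in bone marrow. In Ptprca LSK mice 1 to 3 it held 0.834%, 0.205% and 1.21% in spleen, against 1.51%, 0.987% and 5.46% in bone marrow. Mouse 20 was the Ptprca exception, and mouse 17 showed almost equal shares. The log2 differences of 0.70 in NSG mice and -1.44 in Ptprca mice were not called (limma adjusted p = 0.997 and 0.206), and an exact sign-flip permutation test gave p = 0.0469 in Ptprca mice. The difference between hosts, 2.14, was not called (limma adjusted p = 0.250).

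Clone 74372 was higher in spleen in 3 of 7 NSG mice and in 6 of 7 Ptprca mice. In NSG LSK_GMP mice 21 to 23 it held 1.18%, 5.51% and 0.105% in spleen, against 1.57%, 1.46% and 2.47% in bone marrow, and the spleen of mouse 24 held 1.54%. In NSG LSK mice 9 to 12 it held 0.437%, 2.74%, 0.638% and 0.443% in spleen, against 1.18%, 0.506%, 0.433% and 2.53% in bone marrow. NSG mice thus ran either way, with wide overlap. In Ptprca LSK_GMP mice 17 to 20 it held 2.69%, 2.17%, 3.01% and 0.349% in spleen, against 0.261%, 0.694%, 2.36% and 1.99% in bone marrow. In Ptprca LSK mice 1 to 3 it held 4.83%, 2.48% and 1.64% in spleen, against 0.936%, 0.620% and 0.956% in bone marrow. Spleen exceeded bone marrow in all 3 of these LSK mice with no overlap, and mouse 20 reversed the order among LSK_GMP mice. The share of all clones with no such overlap was not determined. The spleen minus bone marrow difference was -0.62 in NSG mice and 1.21 in Ptprca mice (95% interval -0.59 to 3.02), neither of them called (limma adjusted p = 0.997 and 0.268), and nor was the difference between hosts, at -1.84 (limma adjusted p = 0.289).

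The tissue difference of no clone of the 5 was called between recipient types, where 0% of clones were called by limma and 10 of 117 had an unadjusted p under 0.05. Clone 15135 had the largest such value, 3.603 for LSK_GMP minus LSK recipients (limma unadjusted p = 0.0262, adjusted p = 0.418), and 2.71 without mice 21 and 22 (limma adjusted p = 0.661). The others stood at 0.42 (16972), 0.25 (29725), -0.89 (74372) and 1.39 (94628). Without these mice the tissue differences in NSG mice were -1.598 for clone 16972, 1.198 for 15135, 0.86 for 29725, -2.39 for 74372 and 0.99 for 94628, none of them called.

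The shares of the 5 clones spread more widely between mice than those of the leading clones, as a description without a test. The coefficient of variation between mice, averaged over the 4 groups, was 46.6% for clone 74372, 47.9% for clone 16972, 80.0% for clone 15135, 84.1% for clone 29725 and 135% for clone 94628. For the leading 4 clones it lay between 19.6% and 34.0%. Over the 6 neighbours in size named above it lay between 69.1% and 179%, so wide spread was common at this size. The spread of clone 16972 was uneven: its coefficient of variation was 131% in NSG LSK_GMP mice, 34.5% in NSG LSK mice, 16.95% in Ptprca LSK_GMP mice and 9.18% in Ptprca LSK mice. For clone 15135 it was 181% in NSG LSK_GMP mice and 20.9% in Ptprca LSK_GMP mice, and clone 74372 stayed between 40.2% and 54.4% in all 4 groups. All these are values for the mean of both tissues, and single tissues could spread more. In Ptprca LSK_GMP mice clone 15135 had 66.9% in spleen and 68.8% in bone marrow. Clone 74372 ranged from 22.5% in bone marrow of Ptprca LSK mice to 113% in spleens of NSG LSK_GMP mice.

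For 4 of the 5 clones the tissues of a single mouse differed more, in the median, than different mice of a group did, and clone 94628 ran the other way. The median absolute log2 difference between spleen and bone marrow of a mouse was 1.14 for clone 16972, 1.70 for 29725, 1.957 for 74372, 2.04 for 15135 and 2.38 for 94628. Between mice of the same group in the same tissue it was 0.62, 1.47, 1.41, 1.95 and 3.02 for these clones in that order. For the median of all clones fitted these values were 0.89 between tissues and 0.79 between mice, and for the leading 4 clones 0.43 and 0.40. In the median mouse the tissues thus differed by more than 2-fold for each of the 5 clones.

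GFP barcodes should be missing from the 16 libraries of the 8 mice that received GMP cells alone, so reads of the 5 clones there measure background. As CPM of all reads, the medians over those libraries lay between 0.165 and 0.792 for the 5 clones. The highest values were 23.9 CPM for clone 16972, 70.5 for 15135 and 9.63 for 29725, all in the spleen of mouse 13, and 151 for clone 74372 and 15.5 for 94628, both in the spleen of mouse 14. No library of LSK or LSK_GMP recipients was at or below that highest value for clones 16972, 29725 and 74372. For clone 15135 the bone marrow of mice 22 and 23 was, and for clone 94628 the bone marrow of mice 9 and 11 and the spleens of mice 2 and 24 were. The lowest shares of these 2 clones can therefore not be told apart from background.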

How the data were processed

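Barcodes were counted in 96 sequencing libraries of genomic DNA, which are PCR duplicates of mouse tissues and pools. The authors deposited 48 distinct columns in 2 tables, with barcodes filtered and duplicates collapsed, as CPM (counts per 1000000 barcode reads) per the file headers. The extraction text of the labels is about loading single cells into droplets, although the molecule given is genomic DNA, which leaves the DNA preparation unclear. Bowtie 1.2.2 and R 3.6 are listed in the submitters' processing notes. Their settings are not given in the sources used here. All values were whole multiples of 1 step per column (100% within 0.01 read), taken as reads: 4257581 to 8499553 per column. With 0 reads, up to 3 reads would remain possible.

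The mouse was the replicate. Shares of GFP reads were averaged over its tissues and tested with limma 3.58.1 (lmFit, eBayes with trend) on log2(CPM of GFP reads + 10), for clones averaging at least 100 CPM, in 1 fit of 4 recipient groups. Differences between tissues used the mouse as a block, since the labels give both tissues of the same animal: deviations from the group means correlated at -0.10 to 0.57 (median 0.345) over 14 mice. The code was tested on simulated data, with changes in clones smaller than the 5 and a capped spread between mice. The simulation therefore does not show how often changes in the 5 clones would be called. The 5 clones were chosen, and the tests written, with earlier results of these data known. All 5 are named in every comparison. The leading 4 clones and the clones just above and below in size are given for scale. The 4 clones that lie between the members were added after their values were seen. Alternatives were other pseudocounts and minima, other scalings, edgeR 4.0.16 on the recovered reads, each tissue alone, and omitted mice or libraries. The barcode tables give names without sequences or genome positions.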

Additional observations from a re-analysis of the deposited data

Results flagged for a closer look

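In 10 of 40 sets of 4 mice, a single mouse stood far from the others by Dixon's ratio. Its rate of about 1 of 20 sets by chance holds for independent sets of normally distributed values. Here many shares were skewed and the sets reused the same mice, so the count cannot be set against that rate. NSG LSK_GMP mouse 22 accounted for 5 of the 10. Its mean of both tissues stood above the other mice for clone 15135 (1.33%), clone 74372 (3.48%) and clone 94628 (1.81%), and so did its spleen for clones 15135 (2.67%) and 94628 (3.604%). In the same group, mouse 21 stood above the others for clone 16972 (1.12%). These are the 2 mice in which bone marrow did not deviate with the spleen of the same mouse.

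In NSG LSK mice, the spleen of mouse 10 stood above the others for clone 74372 (2.74%) and clone 94628 (0.183%), and the bone marrow of mouse 12 for clone 94628 (0.0631%). Both libraries held reads of barcodes those mice had not received, at 0.141% and 0.110% of reads. Among Ptprca LSK_GMP mice, the bone marrow of mouse 19 stood below the others for clone 16972 (2.27%). The part of library quality in these values was not tested.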

How the results depend on the processing

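The direction of the host comparison depends on the scaling. Centred on the median clone, NSG minus Ptprca was 1.47 (16972), 2.32 (15135), 2.01 (29725) and 4.64 (74372), with 4 clones called, all higher in NSG (44.3% of all clones were called). In LSK_GMP recipients it was then 1.72, 0.52 and 2.32 for clones 16972, 15135 and 29725, none called, and 5.40 for 74372, the 1 call (26.1% of all clones were called). In LSK recipients it was 1.22 (16972), 4.12 (15135), 1.70 (29725) and 3.87 (74372). Clones 15135 (limma adjusted p = 0.0309) and 74372 (limma adjusted p = 0.000468) were called there, both higher in NSG. Clones 16972 and 29725 were not (13.9% of all clones were called). With edgeR and TMM scaling it was 0.71 (15135), 0.013 (29725) and 1.74 (74372), and 0.22 for 29725 in LSK_GMP recipients. The number of the 5 clones called for host, 3, was 1 with TMM (74372, higher in NSG, while 16972 stood at -1.01 and was not called) and 1 outside the leading 4 clones (16972, lower in NSG). Of all clones, 53.0% were called for host with TMM. Where a setting carries no percentage in this section, the part of all clones called is not given. With TMM the number of the 5 was 0 in LSK_GMP recipients (39.1% of all clones) and in LSK recipients (23.5%). Of the other alternatives, the 2 calls in LSK recipients became 1 with a minimum of 1000 CPM (36.8%), no minimum (12.6%), edgeR without TMM (23.5%), spleen alone, or outside the leading 4 clones, and 1 to 2 with a mouse left out. The 3 calls in LSK_GMP recipients became 1 with edgeR without TMM (56.5%), and 2 to 4 with a mouse left out. Clone 29725 also lost its call there with no minimum (limma adjusted p = 0.124, 8.15% of clones called) and with CPM of all reads (0.0764, 53.3%). It lost the call in spleen alone (limma adjusted p = 0.0703) and outside the leading 4 clones (0.335) too.

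For the presence of GMP cells, the 0 calls became 2 (clones 16972 and 15135) with CPM of all reads, where GMP reads share the total. In that setting 36.7% of 90 clones were called. Without mice 21 and 22 the 0 calls became 1 (15135). In NSG mice the 0 calls became 1 with CPM of all reads (5.56% of clones called), with bone marrow alone and without mice 21 and 22. The interaction with host became 1 without mice 21 and 22. With a mouse left out, each of these 3 counts was 0 to 1. For tissue, the 0 calls became 1 (16972) with a pseudocount of 100 CPM (26.5% of clones called) or a minimum of 1000 CPM (28.2%), and 0 to 1 with a mouse left out. The interaction with host was also 0 to 1 with a mouse left out.

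In Ptprca mice, the 1 tissue call became 2 with a pseudocount of 100 CPM (47.0% of clones called). It became 0 with a pseudocount of 1 CPM (24.8%), with minima of 10 (20.3%) or 1000 CPM (33.3%) or none (3.35%), and centred (9.4%). It was also 0 with edgeR with TMM (4.27%) or without (1.71%), without the libraries holding reads not received (32.2%), without the replicate block, and outside the leading 4 clones. With a mouse left out it was 0 to 1. The fit without the replicate block changed no other count of calls among the 5 clones. The cause of these changes was not tested. Over all clones, 23 were called for tissue, against 8 without the block, 4 with a pseudocount of 1 CPM and 2 with edgeR. For host 83 of 115 were called (72.2%), against 136 of 233 (58.4%) and 25 of 38 (65.8%) with minima of 10 and 1000 CPM, and 51 of 115 (44.3%) centred. For the presence of GMP cells 7 of 115 were called (6.09%), against 33 of 90 (36.7%) with CPM of all reads and 0 of 115 centred.

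With 3 or 4 mice per group, differences in clones that spread widely between mice are hard to call. Shares outside the leading 4 clones and the omission of mice 21 and 22 were chosen after seeing the data. Background, which is separate from depth, limits the lowest shares of clones 15135 and 94628. The share of clone 94628 in the spleen of mouse 24 also rests on 1 read. Clone 29725 in the bone marrow of mouse 21 stood at 13.9 CPM of all reads, not far above its highest background of 9.63 CPM.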
